A study of Homo sapiens with 6 samples.

Results

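Aminoacyl-tRNA synthetases join each amino acid to its tRNA. The 34 genes described here were taken by symbol from a table of 60675 gene IDs, and all 34 were found, each at a single entry. They comprise 20 genes of the cytosolic enzymes and 14 of the mitochondrial ones. The libraries came from cells of HCT116, an established line from a human colon carcinoma, that stably expressed either the K29Q form of PHF5A (3 libraries, K29Q 1 to 3) or wild-type PHF5A (3 libraries, WT 1 to 3). In K29Q a glutamine stands in place of a lysine of PHF5A, a subunit of the SF3B splicing complex, and glutamine is widely used to imitate an acetylated lysine. The WT cells also carry an introduced PHF5A, so the comparison is between 2 forms of the introduced protein. The labels do not give the promoter, the number of clones or what remains of the cells' own PHF5A, nor whether libraries came from separate cultures, so the p-values speak of the variation among these 6 libraries alone, and that variation may be technical.

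In the cytosol a separate enzyme serves nearly every amino acid, and several of these enzymes are held in the multisynthetase complex, built on the scaffold proteins AIMP1, AIMP2 and EEF1E1. Mitochondria translate their own few messages with a second set of synthetases, encoded in the nucleus and imported, whose gene names end in 2. GARS and KARS each encode both the cytosolic and the mitochondrial enzyme, and EPRS joins the glutamyl and prolyl enzymes in 1 protein. When tRNAs stay uncharged the kinase GCN2 favours translation of the transcription factor ATF4, which is known to raise many cytosolic synthetase genes together with genes of amino acid supply.

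PHF5A transcripts were measured at 41.4, 45.9 and 45.04 FPKM (fragments per kilobase of transcript, scaled to the mapped total) in K29Q 1 to 3, and at 32.4, 34.4 and 32.7 FPKM in WT 1 to 3. Every K29Q library lay above every WT library (exact two-sided permutation p = 0.1, the smallest that 3 against 3 libraries allow), and gene totals do not tell the introduced gene from the cells' own. FPKM sums ran from 249034 to 253451 per library, and 12916 to 13298 genes reached an FPKM of 1. Of 9 colon epithelial markers 7 reached that level in all libraries, CLDN4 in some, and VIL1 in none, where its highest value was 0.181 FPKM. Together the 9 epithelial markers summed to 1162 to 1217 FPKM in K29Q and 1262 to 1427 FPKM in WT, without overlap. KRT19 was the largest part of that sum, with means of 601 FPKM in K29Q and 699 FPKM in WT. KRT8, KRT18, KRT19 and CDH1 were lower in every K29Q library. EPCAM, CDX2, CLDN3 and CLDN4 overlapped, with EPCAM means of 58.1 FPKM in K29Q and 55.8 FPKM in WT. VIL1 was higher in every K29Q library, though near 0. The part of these marker differences in the results on the synthetase genes was not tested. The 6 leukocyte markers summed to 2.60 to 2.89 FPKM in K29Q and 2.51 to 3.10 FPKM in WT, and the 4 endothelial markers to 0.244 to 0.284 FPKM in K29Q and 0.267 to 0.373 FPKM in WT. CD68 was the largest part of the leukocyte sum, at 1.47 to 1.999 FPKM over all libraries, followed by LYZ at 0.451 to 0.703 FPKM. CD68 was the 1 leukocyte marker that reached an FPKM of 1 in all libraries, and the other 5 stayed below it in all. PTPRC, which defines leukocytes, was at 0 in all K29Q libraries and at most 0.00268 FPKM in WT. On the first principal component of all tested genes (34.1% of the variance) WT 1, at −4.72, lay beside the K29Q libraries, at −4.76, −6.81 and −14.92, and away from WT 2 at 13.22 and WT 3 at 17.99.

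All 34 synthetase genes passed the filter on low values (3 or more libraries with an FPKM of 1 or higher) and none passed the test between K29Q and WT (limma on log2(FPKM + 1), Benjamini-Hochberg adjustment over 13261 genes, threshold 0.05). Over all genes 7 passed, or 0.0528%. At an unadjusted p under 0.05 there were 4 synthetase genes of 34, or 11.8%, where the share among all genes was 12.5%. These are bulk libraries, in which fewer cells with a transcript and less of it per cell cannot be told apart. The lowest adjusted p among the members was 0.365 (limma, QARS). The fitted log2 fold changes ran from −0.21 (YARS) to 0.24 (EPRS), with standard errors from 0.053 to 0.142, and the bound of a 95% confidence interval farthest from 0 was 0.52 (EPRS). Of the 34, 14 lay above 0 and 20 below, with a median of −0.02 beside a median of 0.003 over all genes tested.

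**Figure D1:**
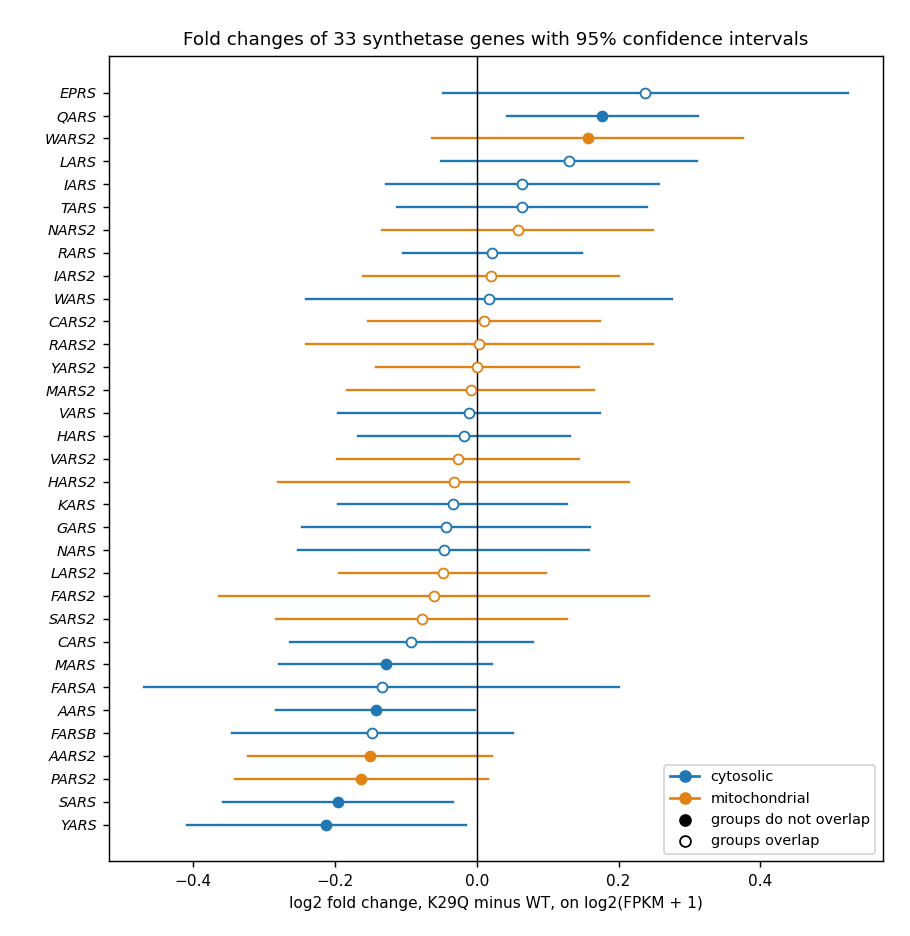
Log2 fold change (K29Q minus WT, log2(FPKM + 1) scale) of 33 of the 34 genes, with limma's 95% confidence interval; filled points mark genes whose K29Q and WT libraries do not overlap. Estimates lie between −0.21 (YARS) and 0.24 (EPRS), and the filled points comprise 2 genes higher and 6 lower in K29Q.

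The groups did not overlap for 8 members. In 2 of them every K29Q library was higher (5.88%, against 8.80% of all genes) and in 6 every K29Q library was lower (17.6%, against 9.00% of all genes). The 2 higher ones were QARS and the mitochondrial WARS2. The 6 lower ones were AARS, SARS, YARS and MARS in the cytosol and AARS2 and PARS2 in mitochondria. None of these differences passed the threshold over all genes.

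QARS, glutaminyl-tRNA synthetase and a member of the multisynthetase complex, had the smallest p of the 34. It was measured at 16.7, 16.97 and 16.8 FPKM in K29Q 1 to 3 and at 14.6, 15.4 and 14.3 FPKM in WT 1 to 3. The K29Q libraries lay close together above all WT libraries. The ratio of means was 1.14 and the log2 fold change 0.18 (SE 0.057, 95% confidence interval 0.04 to 0.31, limma, adjusted p = 0.365). The column headers hold a pair of codes, which are taken here as sequencing flow cells A and B although the headers do not say so. A held K29Q 1, K29Q 2 and WT 2, and B held K29Q 3, WT 1 and WT 3. For QARS the log2 difference was 0.12 on A and 0.21 on B. QARS (ENSG00000172053) lies on chromosome 3 from 49095932 to 49105135 on the minus strand (GRCh38).

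SARS, which charges the tRNAs for serine and, as the first step towards selenocysteine, the selenocysteine tRNA, was measured at 33.6, 37.8 and 36.1 FPKM in K29Q 1 to 3 and at 39.1, 41.5 and 42.9 FPKM in WT 1 to 3. All K29Q libraries were below all WT libraries, at a ratio of 0.870 (log2 fold change −0.20, SE 0.069, limma, adjusted p = 0.377), with −0.21 on flow cell A and −0.18 on B. YARS, tyrosyl-tRNA synthetase, was measured at 12.6, 15.4 and 13.1 FPKM in K29Q 1 to 3 and at 16.4, 15.5 and 15.9 FPKM in WT 1 to 3. Here K29Q 2 came within reach of WT 2, and the spread was wider in K29Q. The YARS log2 fold change was −0.21 (SE 0.083, limma, adjusted p = 0.389). YARS shares 1387 nt with S100PBP on the opposite strand, which had mean FPKM of 2.83 in K29Q and 2.42 in WT, and the strand setting of the authors' quantification is not given in the sources used here.

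AARS, alanyl-tRNA synthetase, was the most abundant synthetase transcript. It was measured at 76.5, 76.1 and 76.0 FPKM in K29Q 1 to 3 and at 79.4, 87.7 and 85.7 FPKM in WT 1 to 3. The K29Q values were nearly equal and WT 1 was the nearest to them (log2 fold change −0.14, SE 0.059, limma, adjusted p = 0.396). MARS, methionyl-tRNA synthetase, which also charges the initiator tRNA, was measured at 16.1, 15.9 and 16.3 FPKM in K29Q 1 to 3 and at 17.9, 18.6 and 16.6 FPKM in WT 1 to 3, where WT 3 lay just above K29Q 3 (log2 fold change −0.13, SE 0.064, limma, adjusted p = 0.444). Its gene overlaps DDIT3 on the opposite strand by 982 nt, and DDIT3 had mean FPKM of 8.41 in K29Q and 8.79 in WT.

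EPRS had the largest estimate of the 34, and its groups overlapped. It was measured at 30.6, 29.2 and 32.0 FPKM in K29Q 1 to 3 and at 31.5, 23.2 and 23.4 FPKM in WT 1 to 3, so WT 1 was with the K29Q libraries, as it was on the first principal component. The log2 fold change was 0.24 (SE 0.121, limma, adjusted p = 0.453). FARSA, the catalytic subunit of cytosolic phenylalanyl-tRNA synthetase, varied along another line. Its values were 65.9, 51.4 and 51.2 FPKM in K29Q 1 to 3 and 54.5, 57.5 and 73.4 FPKM in WT 1 to 3, with K29Q 1 and WT 3 the highest. Those libraries were also the highest on the second principal component, at 14.6 and 9.41.

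Among the mitochondrial enzymes the smallest p values belonged to PARS2, AARS2 and WARS2. PARS2, the mitochondrial prolyl enzyme, was measured at 5.23, 5.28 and 5.34 FPKM in K29Q 1 to 3 and at 5.52, 6.67 and 5.96 FPKM in WT 1 to 3 (log2 fold change −0.16, SE 0.075, limma, adjusted p = 0.426). AARS2, the alanyl enzyme, was measured at 5.42, 5.27 and 5.34 FPKM in K29Q 1 to 3 and at 5.58, 5.96 and 6.63 FPKM in WT 1 to 3 (log2 fold change −0.15, SE 0.073, limma, adjusted p = 0.438). In both genes the K29Q libraries differed little among themselves and WT 1 was the lowest WT library. WARS2, the tryptophanyl enzyme and the least abundant synthetase transcript, was measured at 1.77, 1.74 and 2.21 FPKM in K29Q 1 to 3 and at 1.69, 1.72 and 1.40 FPKM in WT 1 to 3. Its K29Q 2 and WT 2 values were almost equal, and its log2 difference was 0.02 on flow cell A and 0.33 on B.

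SARS2, the mitochondrial seryl enzyme, had overlapping groups, at 10.96, 9.53 and 9.64 FPKM in K29Q 1 to 3 and 10.8, 9.65 and 11.5 FPKM in WT 1 to 3. LARS2, the leucyl enzyme, had 5.06, 5.52 and 5.23 FPKM in K29Q 1 to 3 and 5.34, 5.64 and 5.46 FPKM in WT 1 to 3. NARS2, the asparaginyl enzyme, had 6.97, 7.60 and 7.44 FPKM in K29Q 1 to 3 and 6.28, 7.62 and 7.19 FPKM in WT 1 to 3. The groups overlapped in all 3 genes, with log2 fold changes of −0.08, −0.05 and 0.06. The other 8 mitochondrial members (CARS2, FARS2, HARS2, IARS2, MARS2, RARS2, VARS2 and YARS2) also had overlapping groups.

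Taken by compartment, the cytosolic genes had the higher levels and the difference between K29Q and WT was small in both sets. Mean FPKM over the 6 libraries ran from 8.90 (WARS) to 80.2 (AARS) among the 20 cytosolic genes, with a median of 24.5. It ran from 1.76 (WARS2) to 35.4 (IARS2) among the 14 mitochondrial genes, with a median of 6.77. FARSA, at 59.0 FPKM, followed AARS at the top of the cytosolic set, and CARS, the cysteinyl enzyme, at 9.10 FPKM lay next to WARS at its foot. HARS2, at 12.9 FPKM, was a distant follower of IARS2, and CARS2, at 2.44 FPKM, lay next to WARS2.

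The groups of WARS overlapped, at 8.56, 9.18 and 9.04 FPKM in K29Q 1 to 3 and 7.52, 10.4 and 8.70 FPKM in WT 1 to 3. WARS, the cytosolic tryptophanyl enzyme, is the synthetase best known as an interferon-induced gene. CARS was measured at 8.22, 9.17 and 8.94 FPKM in K29Q 1 to 3 and at 9.07, 10.1 and 9.08 FPKM in WT 1 to 3, with WT 2 the highest. IARS2 was measured at 33.2, 36.6 and 37.3 FPKM in K29Q 1 to 3 and at 36.7, 36.4 and 32.5 FPKM in WT 1 to 3, again with overlapping groups. CARS2 was measured at 2.36, 2.32 and 2.67 FPKM in K29Q 1 to 3 and at 2.50, 2.36 and 2.41 FPKM in WT 1 to 3.

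**Figure D2:**
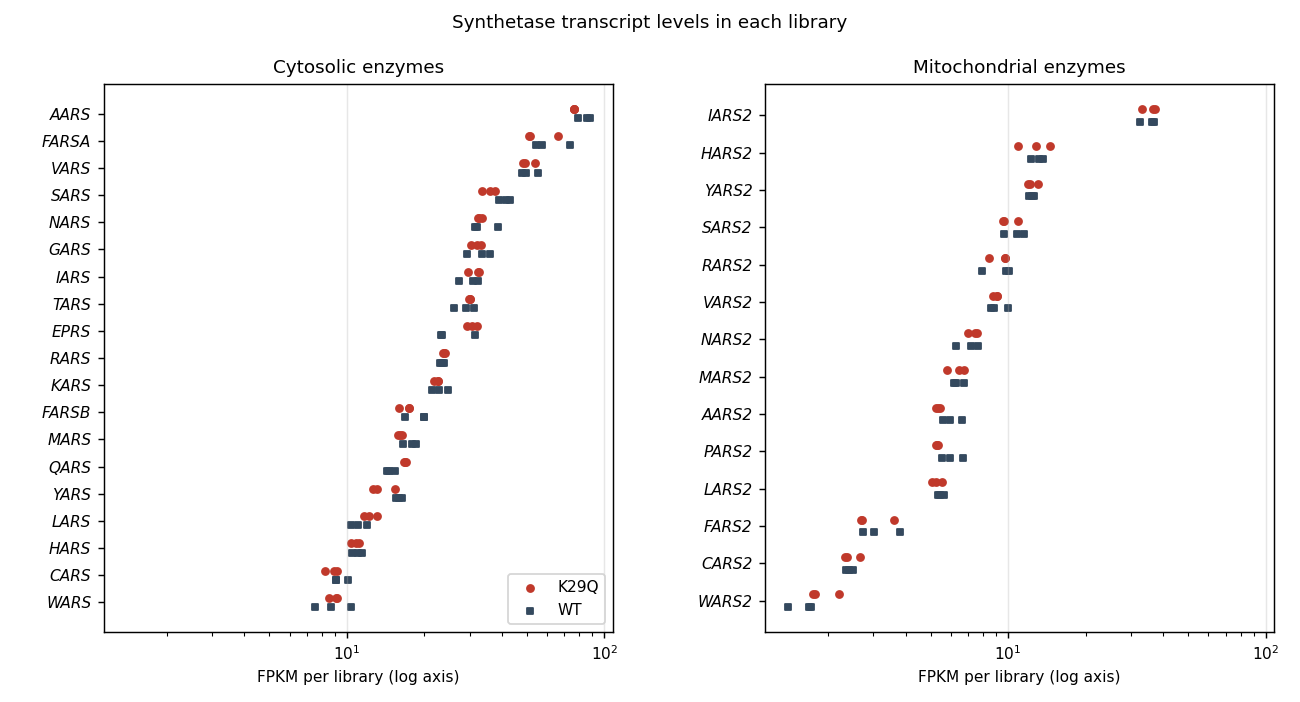
FPKM (log axis) of 33 of the 34 synthetase genes in each of the 3 K29Q libraries (circles, upper row of each gene) and 3 WT libraries (squares, lower row), ordered by mean. Cytosolic genes run from 8.90 (WARS) to 80.2 FPKM (AARS) and mitochondrial genes from 1.76 (WARS2) to 35.4 FPKM (IARS2), and the groups of 8 genes do not overlap.

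Spread over the 6 libraries also differed between members. RARS, arginyl-tRNA synthetase, was the steadiest, with 23.6, 24.2 and 23.9 FPKM in K29Q 1 to 3 and 23.9, 23.1 and 23.5 FPKM in WT 1 to 3, a coefficient of variation of 1.61%. The most variable were FARS2 (16.0%), FARSA (15.1%), WARS2 (14.7%) and EPRS (14.1%). The median coefficient of variation was 7.42% for cytosolic and 7.66% for mitochondrial genes.

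The median log2 fold change was −0.03 for the cytosolic genes, 8 above 0 and 12 below, and −0.02 for the mitochondrial genes, 6 above 0 and 8 below. The mean of log2(FPKM + 1) over the cytosolic genes was 4.61 ± 0.017 in K29Q and 4.63 ± 0.032 in WT (SD, n = 3 each). Over the mitochondrial genes it was 3.00 ± 0.034 in K29Q and 3.03 ± 0.035 in WT. The distance between the compartments was 1.63, 1.59 and 1.601 in K29Q 1 to 3 and 1.64, 1.58 and 1.58 in WT 1 to 3 on this scale. These distances overlapped, and their mean differed by 0.01 between K29Q and WT, less than the pooled SD of 0.026. No p was computed for these means, since the members were chosen with earlier results of these data known.

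Summed over the 20 cytosolic genes, FPKM was 556, 552 and 550.2 in K29Q 1 to 3 and 567, 571 and 567 in WT 1 to 3, without overlap. AARS and SARS, picked out after their values were seen, held most of that gap, with 112 ± 1.88 in K29Q and 125 ± 5.98 in WT, while the other 18 genes summed to 441 ± 4.17 in K29Q and 443 ± 4.91 in WT (SD, n = 3 each) and overlapped. The 14 mitochondrial genes summed to 126 ± 3.81 FPKM in K29Q and 128 ± 2.89 FPKM in WT, with overlap.

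For 14 pairs of a cytosolic and a mitochondrial enzyme for the same amino acid the FPKM ratio was taken within each library. The cytosolic gene was the higher in all 6 libraries for 12 pairs and the lower in all 6 for IARS over IARS2 and HARS over HARS2. The largest mean ratios were those of FARSA over FARS2 (19.2 ± 5.05 in K29Q and 19.9 ± 4.65 in WT), AARS over AARS2 (14.3 ± 0.172 in K29Q and 13.96 ± 0.920 in WT) and FARSB over FARS2 (5.74 ± 0.849 in K29Q and 6.07 ± 1.12 in WT). The smallest were those of HARS over HARS2 (0.856 ± 0.0915 in K29Q and 0.845 ± 0.0531 in WT), IARS over IARS2 (0.884 ± 0.00787 in K29Q and 0.857 ± 0.0215 in WT) and YARS over YARS2 (1.11 ± 0.152 in K29Q and 1.29 ± 0.0329 in WT; SD, n = 3 each). K29Q and WT overlapped in all 14 pairs. FARSA and FARSB, the subunits of the cytosolic phenylalanyl enzyme, share the single-chain FARS2 as partner, so these ratios are not independent.

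**Figure D3:**
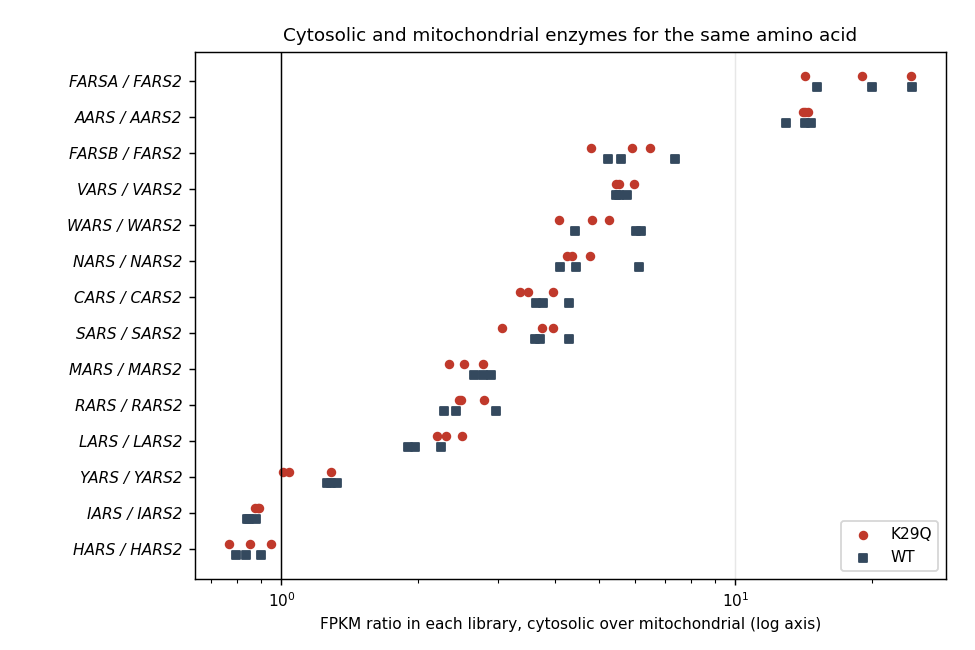
FPKM ratio (log axis) of the cytosolic over the mitochondrial gene for the same amino acid in each K29Q library (circles, upper row) and WT library (squares, lower row); the line marks equal FPKM. In 12 of 14 pairs all ratios lie above 1, and in every pair the K29Q and WT points overlap.

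The histidyl pair is encoded head to head. In RefSeq (GRCh38.p14) HARS starts on the minus strand of chromosome 5 and HARS2 on the plus strand 85 nt away, and the 84 bases between the starts, which both promoters share, are shown as they read towards HARS2, at chr5:140691371-140691454, plus strand.
HARS to HARS2: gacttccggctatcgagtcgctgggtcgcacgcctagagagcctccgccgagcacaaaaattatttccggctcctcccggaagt
HARS was measured at 10.9, 11.2 and 10.4 FPKM in K29Q 1 to 3 and at 10.46, 11.4 and 11.04 FPKM in WT 1 to 3. HARS2 was measured at 12.8, 14.6 and 10.9 FPKM in K29Q 1 to 3 and at 13.1, 13.6 and 12.2 FPKM in WT 1 to 3. For both genes K29Q 2 was the highest and K29Q 3 the lowest of the K29Q libraries, and WT 2 was the highest WT library. The lowest WT library was WT 1 for HARS and WT 3 for HARS2. The gene models overlap by 437 nt on opposite strands in GENCODE 29, so reads of that stretch may be divided between them. HARS2 also shares 639 nt on the same strand with ZMAT2, a more abundant gene. ZMAT2 had mean FPKM of 39.4 in K29Q and 39.5 in WT. The part of either overlap in the HARS2 values was not tested.

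The cytosolic genes were also split by membership in the multisynthetase complex, by a list chosen with earlier results of the series known. Of the 8 complex members 6 lay above 0 (among them EPRS, IARS, LARS, QARS and RARS) and 2 below (KARS and MARS), with a median log2 fold change of 0.10. After a correction for GC content and transcript length in each library that median was 0.02, with 5 above 0 and 3 below, RARS then standing at −0.05. Of the 12 other cytosolic genes 2 lay above 0 (TARS and WARS) and 10 below, with a median of −0.07, which was also −0.07 after the correction. None of either set passed the test over all genes. LARS, the leucyl enzyme, which also takes part in leucine sensing, was measured at 11.6, 12.2 and 13.1 FPKM in K29Q 1 to 3 and at 12.01, 11.1 and 10.4 FPKM in WT 1 to 3, with WT 1 again among the K29Q values.

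Mean log2(FPKM + 1) of the complex members minus that of the other cytosolic genes was −0.22, −0.21 and −0.15 in K29Q 1 to 3 and −0.24, −0.39 and −0.42 in WT 1 to 3. The groups did not overlap, although WT 1 lay 0.02 from K29Q 1. The difference of K29Q minus WT was 0.16 over all libraries, 0.18 on flow cell A and 0.18 on B. The complex members also had the lower GC content, with a median of 43.4% against 51.6% for the other cytosolic genes. After the correction the distances were −0.22, −0.24 and −0.19 in K29Q 1 to 3 and −0.27, −0.36 and −0.35 in WT 1 to 3, with a difference of 0.11. The part of GC content in this distance was not tested.

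**Figure D4:**
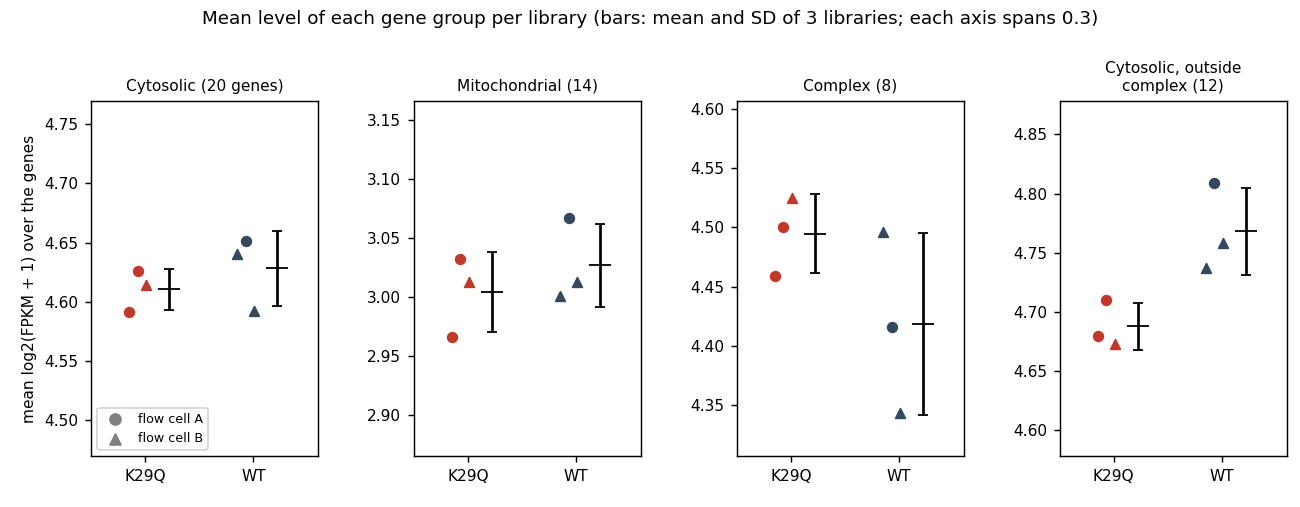
Mean log2(FPKM + 1) per library over the cytosolic genes, the mitochondrial genes, the multisynthetase complex and the other cytosolic genes, K29Q left of WT, with the mean and SD of 3 libraries; circles are flow cell A and triangles flow cell B, and each axis spans 0.3. The cytosolic and mitochondrial means overlap between the groups, and the genes outside the complex are lower in all K29Q libraries.

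GC content moved with the fold changes of the synthetase genes. Of the 12 members with a GC content up to 45% in their longest transcript 10 lay above 0, with a median log2 fold change of 0.06, beside 0.10 for the 4417 tested genes in that range. Of the 7 members above 55% 1 (QARS) lay above 0 and 6 below, with a median of −0.08, beside −0.05 for 4351 tested genes. Pearson's r between GC content and fold change was −0.504 across the 34 members and −0.364 across all genes; this is a description across genes of the same libraries, which are not independent replicates. For each library the log2 deviation from the gene's mean over all libraries was also set against GC content. The slope of this deviation per 10 percentage points was 0.018, −0.056 and −0.069 in K29Q 1 to 3. It was −0.041, 0.030 and 0.118 in WT 1 to 3, so that WT 1 lay within the K29Q range.

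After the correction for GC content and length none of the members passed the threshold, while 81 of 13108 genes did (0.618%), and 4 members were under an unadjusted p of 0.05 (11.8%, against 15.1% of all genes). QARS kept its direction at a log2 fold change of 0.22, as did SARS at −0.15 and AARS at −0.11. FARSB, the other subunit of the cytosolic phenylalanyl enzyme, was the fourth. It was measured at 16.0, 17.4 and 17.5 FPKM in K29Q 1 to 3 and at 20.01, 19.9 and 16.8 FPKM in WT 1 to 3, with WT 3 below 2 of the K29Q libraries, and its log2 fold change was −0.15 before and −0.23 after the correction. The estimate of EPRS was 0.17.

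**Figure D5:**
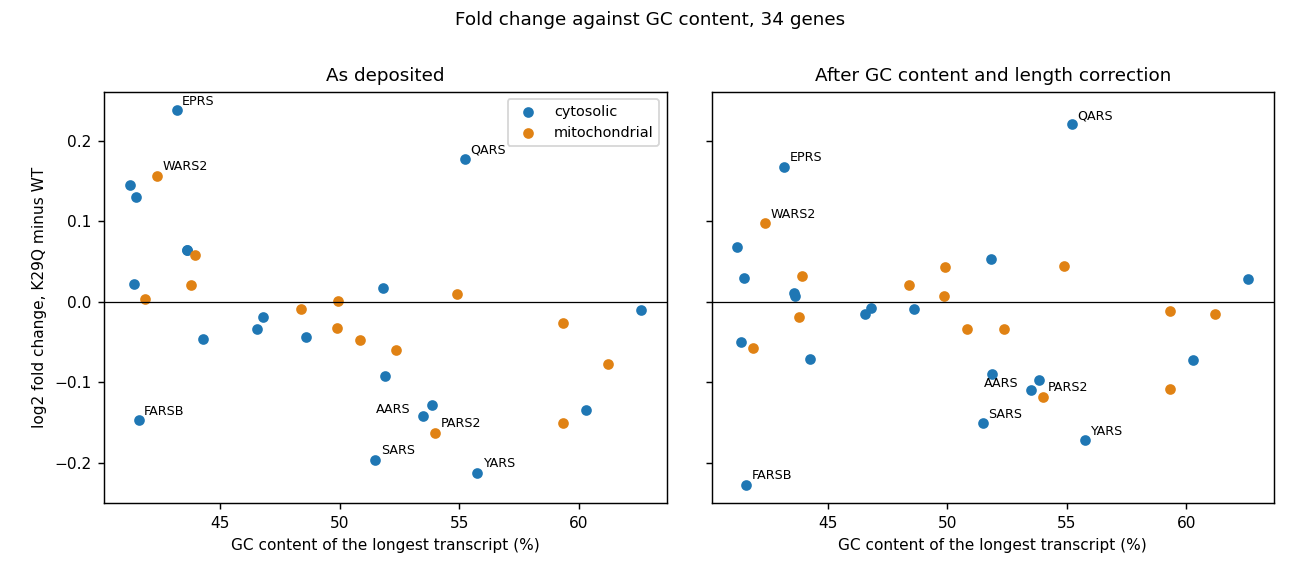
Log2 fold change (K29Q minus WT) of the 34 genes against the GC content of the longest transcript in percent, from the deposited values (left) and after correction for GC content and length (right). The correlation across genes is −0.504 on the left and −0.145 on the right, and QARS stays above 0 in both.

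Of 12 cytosolic synthetase genes commonly reported as ATF4 targets, 5 lay above 0 and 7 below (median log2 fold change −0.05), and of the 8 other cytosolic genes 3 lay above and 5 below (median −0.01). All 4 cytosolic genes that were lower without overlap were on the ATF4 list, 33.3% of its 12 genes, where the share over all genes was 9.00%, and earlier results of these data were known when the list was chosen. The median of the ATF4 list was −0.16 on flow cell A and 0.00 on B. By catalytic class, 10 of 17 class I genes and 3 of 16 class II genes lay above 0, with medians of 0.00 and −0.05; EPRS holds a domain of each class and was left out of both.

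Promoter sequences were available from RefSeq (GRCh38.p14) for 28 of the 34 members. For 23 of these windows the bases just after the start site occur within a GENCODE 29 transcript of the gene. For those of SARS, CARS2, FARS2, PARS2 and WARS2 they do not. Whether a GENCODE transcript begins at the start site was not checked. Some gene models of GENCODE 29 begin farther upstream than the RefSeq start. The windows of FARSA, HARS, KARS, MARS, NARS, QARS, TARS, WARS and CARS2 lie wholly inside the gene model, and that of IARS in part. In the 250 bases before the RefSeq start site both strands were searched for 2 patterns. The first was TGATGNAA, a pattern of the C/EBP-ATF response element bound by ATF4. The second was GAAA, any 2 bases and GAAA again, a pattern of the interferon-stimulated response element. The first was found in 3 of 28 windows (10.7%), where 3.14% of all 35116 promoters hold it. The second was found in 0 of 28, where 3.02% of all promoters hold it. Of the 3 matching windows those of IARS and YARS2 are shown with the match in capitals, and that of QARS, which had the smallest p, beside them; all lie on the minus strand and read 5′ to 3′ towards the gene, at chr9:92293698-92293947 (IARS), chr12:32755898-32756147 (YARS2) and chr3:49104758-49105007 (QARS).
IARS: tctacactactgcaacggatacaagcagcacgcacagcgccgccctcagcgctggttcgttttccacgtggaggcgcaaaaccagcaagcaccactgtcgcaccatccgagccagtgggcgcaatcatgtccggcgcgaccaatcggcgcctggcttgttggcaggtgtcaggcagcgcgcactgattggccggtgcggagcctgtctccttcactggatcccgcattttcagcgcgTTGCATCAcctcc
YARS2: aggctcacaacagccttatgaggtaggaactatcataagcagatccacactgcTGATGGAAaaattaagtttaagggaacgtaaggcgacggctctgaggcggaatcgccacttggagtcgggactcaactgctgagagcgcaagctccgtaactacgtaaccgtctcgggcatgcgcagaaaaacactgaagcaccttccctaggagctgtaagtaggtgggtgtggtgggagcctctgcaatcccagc
QARS: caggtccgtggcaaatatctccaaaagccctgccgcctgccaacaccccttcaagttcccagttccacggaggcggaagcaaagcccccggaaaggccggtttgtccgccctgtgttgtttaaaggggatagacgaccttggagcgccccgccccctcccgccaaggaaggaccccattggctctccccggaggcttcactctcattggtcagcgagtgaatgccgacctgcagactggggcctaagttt
IARS, the isoleucyl enzyme of the complex, carried the match 6 to 13 bases before its RefSeq start, inside the GENCODE 29 gene model. It was measured at 29.6, 32.5 and 32.6 FPKM in K29Q 1 to 3 and at 32.4, 30.9 and 27.3 FPKM in WT 1 to 3. YARS2, whose match lay 190 to 197 bases before its RefSeq start, was measured at 12.1, 11.99 and 13.0 FPKM in K29Q 1 to 3 and at 12.4, 12.1 and 12.6 FPKM in WT 1 to 3. Its gene overlaps DNM1L on the opposite strand by 18161 nt, and DNM1L had mean FPKM of 7.77 in K29Q and 6.50 in WT. The part of this overlap in the YARS2 values was not tested. A match is a description of letters and not of binding.

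The genes that surround the synthetases were taken from lists of 39 genes, of which 38 were tested and none passed over all genes; 3 were under an unadjusted p of 0.05, 1 higher and 2 lower in K29Q (7.89%, against 12.5% of all genes). The groups did not overlap for 1 gene that was higher (2.63%, against 8.80% of all genes) and 4 that were lower (10.5%, against 9.00%). Of the scaffold proteins, AIMP2 was measured at 15.4, 17.6 and 17.3 FPKM in K29Q 1 to 3 and at 18.4, 20.6 and 18.8 FPKM in WT 1 to 3, lower without overlap (log2 fold change −0.19, SE 0.077, limma, adjusted p = 0.392). AIMP1 had overlapping groups, at 10.1, 10.6 and 10.9 FPKM in K29Q 1 to 3 and 11.01, 9.35 and 8.65 FPKM in WT 1 to 3. SEPSECS, which completes selenocysteine on the tRNA that SARS charges, was measured at 1.58, 1.65 and 1.78 FPKM in K29Q 1 to 3 and at 1.49, 1.36 and 1.15 FPKM in WT 1 to 3. It was higher without overlap (log2 fold change 0.20, SE 0.081, limma, adjusted p = 0.394), and 0.03 after the correction for GC content and length. AARSD1, a relative of the alanyl enzyme's editing domain, was measured at 2.06, 2.19 and 2.08 FPKM in K29Q 1 to 3 and at 2.74, 2.97 and 2.17 FPKM in WT 1 to 3, with WT 3 inside the K29Q range. PSTK, a kinase of the same selenocysteine route, was the gene that did not pass the filter on low values.

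Of the remaining mitochondrial synthetases, EARS2 and TARS2 had overlapping groups and log2 fold changes of −0.005 and −0.03. Mitochondria make glutaminyl-tRNA by amidation of glutamyl-tRNA, and QRSL1, GATB and GATC, which encode the enzyme for that step, had log2 fold changes of −0.07, −0.05 and 0.003 with overlapping groups. That of QRSL1 was −0.18 after the correction for GC content and length (limma, adjusted p = 0.268). MTFMT, which formylates the mitochondrial initiator tRNA, had one of −0.04. Among 13 genes of tRNA delivery, export and maturation the groups of all 13 overlapped. EEF1A1, which carries charged tRNA to the ribosome, had 799, 947 and 863 FPKM in K29Q 1 to 3 and 862, 802 and 730.0 FPKM in WT 1 to 3. Its relative EEF1A2 had 552, 471 and 502 FPKM in K29Q 1 to 3 and 526, 568 and 647 FPKM in WT 1 to 3. The log2 fold changes of these 2 genes were 0.12 and −0.19, and that of TRNT1, which adds the CCA end, was 0.12.

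Of 10 genes of the response to uncharged tRNA, 3 lay above 0 and 7 below. ATF4 itself was measured at 129, 134 and 126 FPKM in K29Q 1 to 3 and at 125, 132 and 129 FPKM in WT 1 to 3, with overlapping groups and a log2 fold change of 0.01; its control is largely translational, which RNA levels do not show. TRIB3, a pseudokinase induced through ATF4, was measured at 6.67, 5.79 and 8.85 FPKM in K29Q 1 to 3 and at 10.6, 11.7 and 11.2 FPKM in WT 1 to 3. All K29Q libraries were lower, at a ratio of 0.637 (log2 fold change −0.60, SE 0.134, limma, adjusted p = 0.242), with −0.81 on flow cell A and −0.27 on B. SESN2, a leucine sensor and ATF4 target, was measured at 8.89, 9.14 and 8.41 FPKM in K29Q 1 to 3 and at 9.67, 9.52 and 10.55 FPKM in WT 1 to 3, lower without overlap (limma, adjusted p = 0.408). GCN1, which activates GCN2 and is listed under its older symbol GCN1L1 in the gene list, was the other gene lower without overlap, with means of 46.4 FPKM in K29Q and 48.9 FPKM in WT. ASNS, asparagine synthetase, had 17.8, 18.5 and 18.8 FPKM in K29Q 1 to 3 and 20.4, 22.3 and 18.3 FPKM in WT 1 to 3. PSAT1, of serine synthesis, had 67.0, 75.1 and 74.9 FPKM in K29Q 1 to 3 and 77.3, 88.03 and 74.8 FPKM in WT 1 to 3. In both genes the groups overlapped at WT 3.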

How the data were processed

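RNA of 3 K29Q and 3 WT libraries of HCT116 was sequenced. The authors deposited FPKM values per gene, per the file headers. The submitters' processing notes name HISAT2 2.1.0, StringTie and GRCh38. No source used here gives the version, annotation or strand setting of StringTie. FPKM is not a count, and depth is not stated. In genes with 1 exon and over 600 nt the low values form steps which, taken as 1 fragment each, correspond to 67100000 to 79900000 fragments per library. Of such values up to 4 steps, 52.4% to 54.9% lay within 0.05 of a whole step, so no counts were recovered and no count test was run. Groups and columns were matched through the sample titles, and 0 columns belonged to other samples.

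The 13261 genes that reached an FPKM of 1 in 3 or more libraries were fitted as log2(FPKM + 1) with limma 3.58.1 in R 4.3.3, with an intensity trend and the group as the only term, and Benjamini-Hochberg adjustment over all of them. With the pseudocount of 1, fold changes of low genes come out smaller than they are. The fit was tested on simulated data, drawn for each gene on its own from its mean and spread. Differences that many genes of a library share, such as the GC slopes, were not simulated. Coordinates, GC content and lengths are from GENCODE 29, where 57055 of the IDs were found, and promoters from RefSeq. Gene totals hold no splicing information. The GC content and length correction subtracted, per library, splines with 5 degrees of freedom fitted to deviations from the gene mean (13108 genes).

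The members and all lists were chosen with earlier results of these data known. The rule for naming genes gave values per library for the 6 members of each compartment with the smallest p, the 2 highest and the 2 lowest levels, and all members whose groups did not overlap, and values or fold changes for the 4 genes with the smallest p of each surrounding list; some of the items this covers are not reported here. FARSB, HARS, IARS, LARS, RARS, YARS2, ATF4 and GCN1 are named in addition, chosen after their values were seen. Alternatives covered the pseudocount, filters, quantile normalization, the flow cell, the replicate number, GC content and length, and each library left out.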

Additional observations from a re-analysis of the deposited data

How the results depend on the processing

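No synthetase gene was called under any of the 14 alternatives run, so that count was 0 throughout. The number of members under an unadjusted p of 0.05 (limma) was 4 in the fit as reported. Over the alternatives that number ran from 0 (with the flow cells as a term) to 7 (without WT 1), and the matching shares of all genes were not taken. The count of genes called over all genes was 7. It was 2 with no filter on low values, 13 with quantile normalization, 4 with the flow cells as a term, 3 with the replicate numbers as a block, 81 with the GC content and length correction and 1 when that correction was joined to the replicate block, and it ran from 4 to 19 with single libraries left out (19 without WT 1, 4 without WT 2). The median log2 fold change of the cytosolic genes, −0.026, ran from −0.045 to 0.0089 with single libraries left out, being above 0 without WT 2, and that of the mitochondrial genes, −0.018, from −0.036 to 0.0024, being above 0 without K29Q 1. The difference of the compartment distance was 0.043 with quantile normalization, beside 0.005. It was −0.013 with the GC content and length correction and ran from −0.0057 to 0.024 with single libraries left out (below 0 without K29Q 1, WT 2 or WT 3), so its sign was not settled. Same-numbered K29Q and WT libraries did not deviate together (Pearson correlations across genes of −0.14, 0.18 and −0.16), so the numbers were not taken as pairs. Signs turned for 16 of 46 genes, none of them called; AIMP1 and TRNT1 had estimates of 0.12 and the other 14 lay within 0.064 of 0. With the GC content and length correction, joined to the replicate block or not, TARS2 was 0.015, EARS2 0.020, HARS2 0.0066, IARS2 −0.019, RARS −0.050, AIMP1 −0.023, GATC −0.026 and TRNT1 −0.011. With quantile normalization GATC was −0.00078 and CARS2 −0.032. With the flow cells as a term GATC was −0.032, WARS −0.034 and ATF4 −0.0043. With single libraries left out, NARS2 ran from −0.011 to 0.11 (below 0 without WT 1), TARS2 from −0.050 to 0.0083 (above 0 without WT 3), EARS2 from −0.069 to 0.057 (above 0 without K29Q 1, at 0.0021, or WT 2), MTFMT from −0.12 to 0.019 (above 0 without WT 1) and GATC from −0.020 to 0.041 (above 0 without K29Q 3 or WT 2). CARS2 ran from −0.035 to 0.037 (below 0 without K29Q 3 or WT 2), HARS from −0.050 to 0.0096 (above 0 without K29Q 3 or WT 2), HARS2 from −0.13 to 0.067 (above 0 without K29Q 3) and IARS from −0.0037 to 0.12 (below 0 without WT 3). IARS2 ran from −0.035 to 0.071 (below 0 without K29Q 3 or WT 3), WARS from −0.085 to 0.13 (below 0 without K29Q 2 or WT 1), YARS2 from −0.033 to 0.022 (below 0 without K29Q 3 or WT 2) and ATF4 from −0.0088 to 0.033 (below 0 without K29Q 2 or WT 1). PARS2 was −0.10 without WT 2, AARS2 −0.093 without WT 3 and QRSL1 −0.027 without K29Q 1. The cause was not tested. QARS stayed between 0.16 and 0.22 and SARS between −0.23 and −0.15 over the alternatives, with adjusted p no lower than 0.154 and 0.156. EPRS was 0.38 without WT 1 (limma, adjusted p = 0.0667, and from 0.0667 to 0.777 over the alternatives). PHF5A passed the threshold only with the GC content and length correction (limma, adjusted p = 0.0168), and not in the fit as reported (0.110), with that correction joined to the replicate block (0.137) or under the other 12 alternatives. Leaving out libraries also lowers the number of samples.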
